A study of Mus musculus with 16 samples.

Results

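The small molecule IPW-5371, an inhibitor of transforming growth factor beta (TGFb) signaling, was given alone to mice bearing Trp53 null mammary tumors, and 3 such tumors (TGFbi) were compared with 3 sham-treated tumors (Sham) across all genes. The 6 tumors were chosen by their titles, from 15 tumors and 1 reference library, 16 libraries in all. Every tumor was an F2 transplant derived from family F, a line of Trp53 null mammary tumors, grown in the mammary site of BALB/cJ females aged 8 to 10 weeks, so the loss of Trp53 was shared by both groups. Mice were randomised when the tumor measured 65 to 100 mm3, and tumors were collected 7 days after treatment and frozen. Sham mice received control immunoglobulin G at 25 mg/kg, 3 times per week. TGFbi mice received IPW-5371 at 20 mg/kg daily into the peritoneum, and the labels name this group as control plus inhibitor without saying whether the immunoglobulin was part of it. The same agent was also given with 10 Gy of focal radiation (TGFbi+RT, 3 tumors) and is compared here with radiation alone (RT, 3 tumors), a contrast that shares no tumor with the first. The transplants represent 1 tumor family, and the labels do not say whether each tumor came from a separate mouse, so p-values measure the spread between these tumors.

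TGFb is secreted in a latent complex, is released by integrins and proteases, and binds a pair of serine/threonine kinase receptors that phosphorylate SMAD2 and SMAD3. With SMAD4 these enter the nucleus and act on genes of extracellular matrix, contractile cytoskeleton and cell cycle arrest, and on inhibitors of the pathway itself such as SMAD7. In mammary tumors the pathway is known for activating fibroblasts, for restraining epithelial growth and for dampening immune cells.

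The 6 libraries held 11002869 to 17184023 counts, and 16017 genes were tested. Levels are in CPM, which are counts divided by a library size that TMM factors adjust, and differences are log2 fold changes of TGFbi minus Sham ± standard error. Counts on Trp53 measured 79.7, 85.8 and 86.0 CPM in Sham and 79.0, 92.7 and 80.9 CPM in TGFbi, and counts per gene do not say which exons were transcribed. The epithelial label was met by Epcam, at 127 to 168 CPM over the 6 tumors, and by the basal keratin gene Krt5, at 603 to 1117 CPM. The luminal keratin gene Krt8 ranged from 0.327 to 33.9 CPM. B cell markers Ms4a1 and Cd79a and the muscle gene Ckm did not pass the low-count filter.

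Sham replicate 1 stood apart from the other Sham tumors. Col1a1, the main fibrillar collagen gene, measured 4316 CPM in that tumor against 218 and 278 CPM in the other Sham tumors, and 931, 957 and 1846 CPM in TGFbi. The endothelial gene Pecam1 measured 209 CPM against 29.5 and 46.3 CPM, with 58.7 to 83.4 CPM in TGFbi. So each stromal gene group is given below with and without that tumor. In such bulk RNA, fewer cells of a type and less RNA per cell cannot be told apart.

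Fbln7 was the 1 gene that passed an edgeR quasi-likelihood test adjusted over all genes (0.00624% of those tested), and it was lower under the inhibitor. Fbln7 encodes fibulin-7, a secreted cell adhesion protein of the fibulin family of matrix glycoproteins. Its level was 21.8, 25.4 and 18.5 CPM in the Sham tumors and 3.69, 3.19 and 4.69 CPM in the TGFbi tumors. The groups did not overlap, and the lowest Sham tumor lay well above the highest TGFbi tumor. Fbln7 fell by 2.50 ± 0.29 on the log2 scale (edgeR adjusted p = 0.0157), and DESeq2 gave an adjusted p of 1.17e-11. Without TGFbi replicate 2 the fall was 2.38 with an edgeR adjusted p of 0.227, and the call was also lost without Sham replicate 2 (adjusted p = 0.092) or TGFbi replicate 3 (adjusted p = 0.0769). Without Sham replicate 1, the tumor with high levels of stromal genes, the call was kept. No other gene had an edgeR adjusted p under 0.212, whereas 1359 genes (8.48%) had an unadjusted p under 0.05, 2452 (15.3%) had no overlap between the groups, and DESeq2 called 127 of 14712 genes (0.863%). Of all genes tested 51.4% were below Sham and 48.6% above, whatever the size of the difference.

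Fbln7 (Entrez 70370) lies on chromosome 2, bases 128863932 to 128897034 of GRCm38 on the plus strand, and its model in the deposited annotation has 8 exons. Promoters of 4 genes that the results turn on are printed here from RefSeq (GRCm38.p6), each from 250 bases before to 50 bases after a gene start, to show where the core SMAD-binding letters occur. Acta2 is a classic TGFb target, and Duox1 and Duoxa1 are neighbors that were both higher under the inhibitor. Capitals mark CAGAC or, on the opposite strand, GTCTG.
Fbln7 promoter, chr2:128863682-128863981, plus strand: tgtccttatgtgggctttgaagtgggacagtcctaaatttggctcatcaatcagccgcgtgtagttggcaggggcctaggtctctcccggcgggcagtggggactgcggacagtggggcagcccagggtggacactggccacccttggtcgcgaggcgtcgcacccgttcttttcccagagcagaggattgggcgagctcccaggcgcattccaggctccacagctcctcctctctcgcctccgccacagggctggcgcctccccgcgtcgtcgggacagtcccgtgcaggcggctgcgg
Acta2 promoter, chr19:34255324-34255623, minus strand: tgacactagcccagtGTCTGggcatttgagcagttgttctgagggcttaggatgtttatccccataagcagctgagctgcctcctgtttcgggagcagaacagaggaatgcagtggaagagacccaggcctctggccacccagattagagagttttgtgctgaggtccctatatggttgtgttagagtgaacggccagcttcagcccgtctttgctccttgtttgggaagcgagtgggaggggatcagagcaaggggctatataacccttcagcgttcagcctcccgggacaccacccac
Duox1 promoter, chr2:122315422-122315721, plus strand: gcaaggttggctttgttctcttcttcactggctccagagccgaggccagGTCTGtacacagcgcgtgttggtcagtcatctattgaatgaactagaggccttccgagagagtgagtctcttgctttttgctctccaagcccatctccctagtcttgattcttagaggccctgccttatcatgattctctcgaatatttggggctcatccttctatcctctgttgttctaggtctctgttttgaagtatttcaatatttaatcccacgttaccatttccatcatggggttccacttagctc
Duoxa1 promoter, chr2:122313681-122313980, minus strand: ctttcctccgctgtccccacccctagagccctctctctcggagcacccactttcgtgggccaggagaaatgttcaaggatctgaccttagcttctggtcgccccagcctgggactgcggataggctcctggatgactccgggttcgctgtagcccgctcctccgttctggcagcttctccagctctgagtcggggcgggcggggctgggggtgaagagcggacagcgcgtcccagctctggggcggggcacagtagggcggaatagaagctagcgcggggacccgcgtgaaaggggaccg
The Fbln7 and Duoxa1 windows hold 0 matches, and the Acta2 and Duox1 windows hold 1 each, which starts 235 and 201 bases before the gene start. So short a motif is common: 49.6% of all 32851 promoters in the table hold it. A match describes letters only, and 0 matches says nothing of binding elsewhere.

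**Figure D1:**
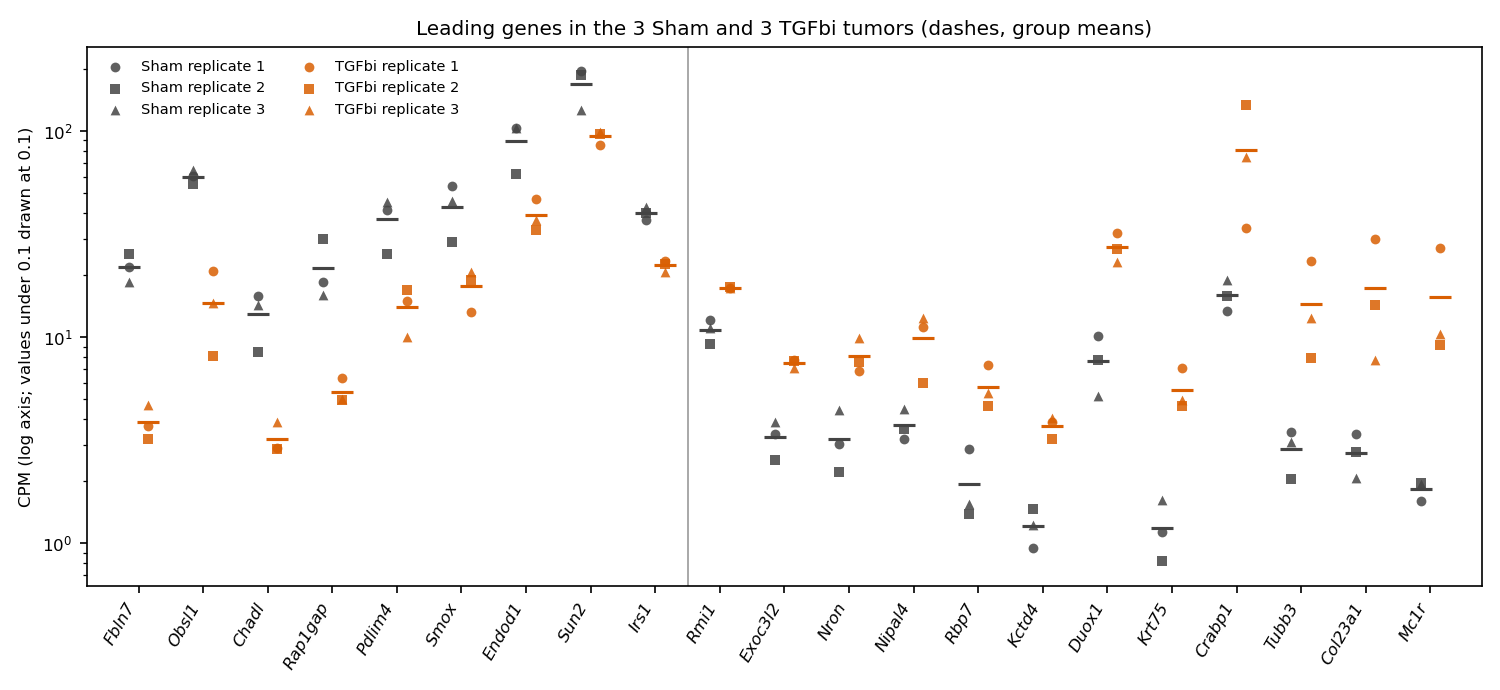
Levels in CPM (log axis) of 9 of the 12 lower and all 12 higher genes with the smallest p in each direction, ordered by log2 fold change, in the 3 Sham tumors (grey) and 3 TGFbi tumors (orange); dashes are group means and shapes are replicate numbers. The genes were picked for having no overlap between the groups, and of those drawn Fbln7 shows the widest gap on the lower side and Mc1r on the higher side.

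Other fibulin genes were compared with Fbln7 as a family of matrix proteins. Efemp2, which encodes fibulin-4 and is needed for elastic fibers, measured 63.6, 66.7 and 39.2 CPM in Sham and 31.0, 30.5 and 35.6 CPM in TGFbi (-0.80 ± 0.25). Fbln2 was at 726, 620 and 333 CPM in Sham and 304, 343 and 355 CPM in TGFbi, with overlap. Fbln1 (-0.22 ± 0.25) and Fbln5 (-0.64 ± 0.66) lay within about 1 standard error of Sham. Members above Sham included Efemp1, which encodes fibulin-3, at 7.83, 2.15 and 3.39 CPM in TGFbi against 2.86, 0.0819 and 0 CPM in Sham, with overlap (2.12 ± 1.37). Hmcn2, a hemicentin related to fibulins, was at 12.5, 11.3 and 13.5 CPM against 5.85, 3.27 and 7.07 CPM in Sham (1.20 ± 0.32). Over the list of fibulins and elastic fiber genes, 18 of 22 members were below Sham with a median of -0.68, beside -0.01 over all genes, but without Sham replicate 1 only 8 of 22 were below and the median was 0.99. Fbln7 and Efemp2 were lower either way.

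The inhibitor's own pathway showed no gene past the adjusted test, in ligands, receptors, SMADs or direct targets. At an unadjusted edgeR p under 0.05 there were 1 of 17, 1 of 11, 1 of 14 and 5 of 42 members of these lists, all lower, beside 4.99% of all genes. The ligand genes Tgfb1, Tgfb2 and Tgfb3 overlapped between groups: Tgfb1 measured 66.8, 27.0 and 30.6 CPM in Sham and 50.8, 47.8 and 66.4 CPM in TGFbi. Among 17 ligand, latency and activator genes, 12 were below Sham with a median of -0.14, which turned to 0.57 with 4 of 17 below without Sham replicate 1, and 0 were without overlap, where 7.88% of all genes were lower without overlap and 7.43% higher. Ltbp1, which tethers latent TGFb to matrix, had the smallest p of these (-1.09 ± 0.49, edgeR adjusted p = 0.583).

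All 11 receptor and coreceptor genes were below Sham, with a median of -0.29 that was -0.13 without Sham replicate 1, where 6 of 11 were below. The signaling receptors were close to Sham: Tgfbr1 measured 91.6, 61.0 and 45.7 CPM in Sham and 51.5, 50.9 and 60.1 CPM in TGFbi. Acvr1, a type I receptor for BMP and activin, did not overlap, at 55.4, 45.4 and 42.3 CPM in Sham and 33.9, 28.1 and 34.7 CPM in TGFbi (-0.57 ± 0.20). Of 14 SMAD and cofactor genes 12 were below Sham, and without Sham replicate 1 this was 7. The feedback inhibitor Smad7 measured 35.0, 16.9 and 24.1 CPM in Sham and 26.5, 19.1 and 24.3 CPM in TGFbi (-0.12 ± 0.24), so its groups overlapped.

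Direct TGFb targets were mostly lower, but that direction rested on 1 tumor. Of 42 tested targets 35 were below Sham, their median difference was -0.48, and DESeq2 called 1 of them lower (Bmp4), beside 0.571% of all genes. Summed over the list, the level was 17310, 3858 and 3695 CPM in Sham and 5017, 4847 and 7189 CPM in TGFbi, so all TGFbi tumors lay above Sham replicates 2 and 3 and under Sham replicate 1. Without Sham replicate 1, 16 of 42 targets were below and the median was 0.23, and 15 targets lay above both remaining Sham tumors in every TGFbi tumor (17.4% of all genes did) against 6 below both (16.6% of all genes). Lox, which crosslinks collagen, had a log2 fold change of -0.71 with all tumors and 2.73 without Sham replicate 1.

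**Figure D2:**
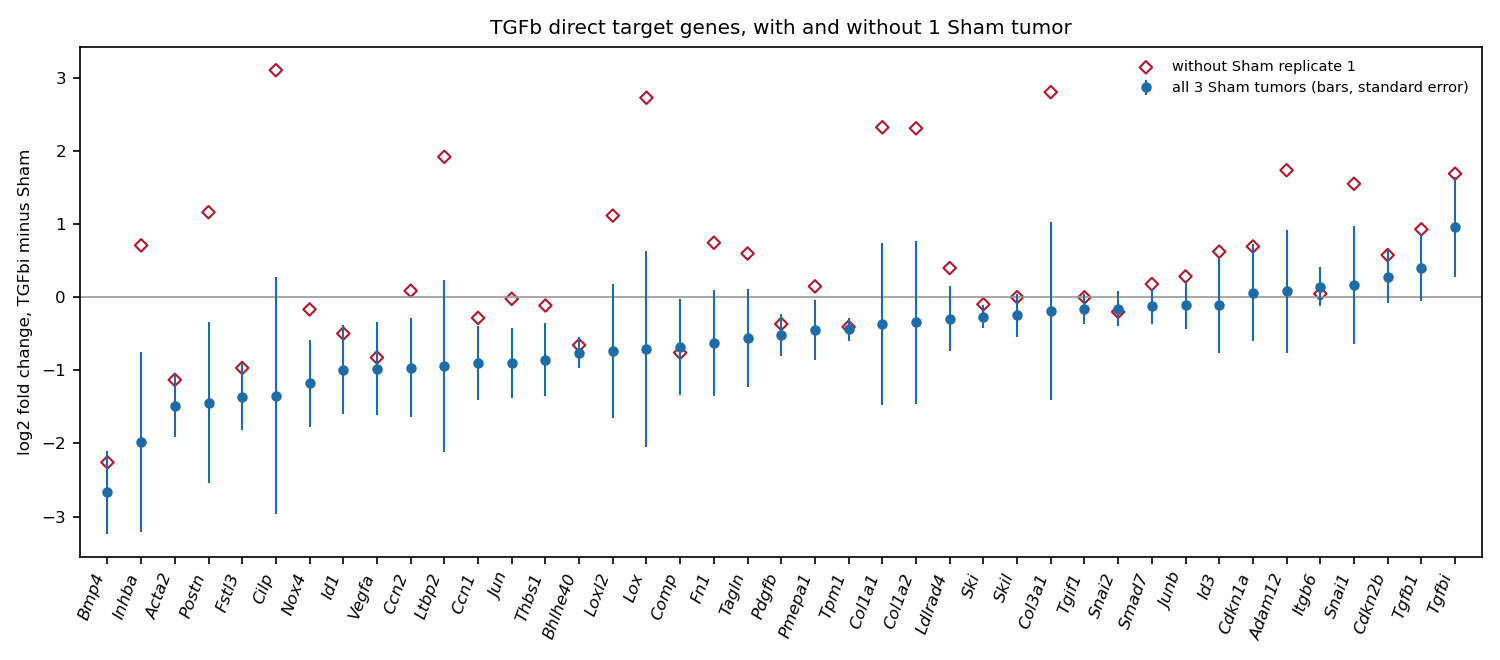
Log2 fold change (TGFbi minus Sham) of 41 of the 42 TGFb direct targets, ordered by value; filled points with standard error bars use all 3 Sham tumors, and open diamonds leave out Sham replicate 1. Matrix genes such as Lox, Col1a1 and Col3a1 go from below 0 to above 2, while Bmp4, Acta2 and Fstl3 stay below 0.

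Of the 35 lower targets 16 stayed below Sham without Sham replicate 1. Acta2, the smooth muscle actin of myofibroblasts and myoepithelium, measured 604, 437 and 221 CPM in Sham and 147, 115 and 190 CPM in TGFbi (-1.48 ± 0.43, and -1.13 without that tumor). The groups did not overlap, though the lowest Sham and highest TGFbi tumor were near each other. Bhlhe40, a transcriptional repressor of the circadian and hypoxia responses, measured 310, 266 and 241 CPM in Sham and 148, 168 and 167 CPM in TGFbi (-0.76 ± 0.21). Fstl3, an activin antagonist, was at 5.01, 1.72 and 3.44 CPM against 1.23, 1.28 and 1.45 CPM. Tpm1, an actin-binding tropomyosin, measured 332, 312 and 303 CPM against 244, 239 and 214 CPM (-0.44 ± 0.16). With Vegfa and Bmp4, these were the 6 targets without overlap, all lower (14.3% of 42, beside 7.88% of all genes).

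BMP ligands, a branch of the same superfamily, act through SMAD1, SMAD5 and SMAD9. Bmp4 measured 4.29, 2.78 and 1.56 CPM in Sham and 0.703, 0.319 and 0.323 CPM in TGFbi (-2.67 ± 0.56). Smad9 was at 18.1, 25.1 and 17.8 CPM against 10.1, 7.89 and 5.50 CPM (-1.38 ± 0.46), and -1.45 without Sham replicate 1. The other SMAD genes of this branch, Smad1 and Smad5, overlapped between groups. Hey1, a transcriptional repressor downstream of BMP and Notch, measured 30.1, 22.2 and 15.4 CPM against 11.3, 9.01 and 8.81 CPM. Inha, the inhibin alpha subunit, was at 1.61, 2.29 and 2.33 CPM against 1.06, 0.478 and 0.485 CPM (-1.62 ± 0.40). None of these passed the adjusted edgeR test, and the whole BMP list had a median of -0.30 with 21 of 28 below Sham, or 0.41 with 11 of 28 without Sham replicate 1.

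Matrix and signaling genes were among the 12 leading lower genes. Chadl, a leucine-rich repeat protein of cartilage matrix, measured 15.8, 8.52 and 14.3 CPM in Sham and 2.90, 2.87 and 3.88 CPM in TGFbi. Irs1, the insulin receptor substrate, held a narrow range in each group, at 36.9 to 42.5 CPM against 20.8 to 23.3 CPM. Rap1gap, Pdlim4, Smox, Endod1, Sun2 and Obsl1 were also among the 12, whose edgeR adjusted p ranged from 0.0157 to 0.239. DESeq2 also called Mdk, the heparin-binding growth factor midkine, at 75.0, 82.9 and 119 CPM in Sham and 20.4, 18.7 and 23.6 CPM in TGFbi (-2.14 ± 0.49, edgeR adjusted p = 0.298).

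The leading higher genes included an oxidase, a keratin and retinoid-binding proteins. Duox1, a dual oxidase that makes hydrogen peroxide at epithelial surfaces, measured 10.1, 7.78 and 5.19 CPM in Sham and 32.1, 26.9 and 23.1 CPM in TGFbi (1.83 ± 0.31, edgeR adjusted p = 0.212). Its maturation factor Duoxa1, named after its values were seen, is transcribed in the opposite direction 1942 bases away and measured 5.13, 4.75 and 2.85 CPM against 8.18, 5.90 and 7.43 CPM (0.76 ± 0.35). Both members of the pair were higher without overlap. Crabp1, a cytosolic retinoic acid binding protein, was at 13.4, 15.9 and 18.9 CPM against 33.7, 134 and 74.4 CPM (2.33 ± 0.41), and Rbp7, a retinol-binding protein, at 2.86, 1.39 and 1.56 CPM against 7.30, 4.62 and 5.33 CPM. Krt75, a keratin of the hair follicle, measured 1.13, 0.819 and 1.62 CPM against 7.12, 4.62 and 4.93 CPM. Its neighbor Krt90, not among the 12 but called by DESeq2, was at 4.24, 0.819 and 0.908 CPM against 12.8, 6.78 and 8.08 CPM.

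Mc1r, the melanocortin 1 receptor, measured 1.61, 1.97 and 1.95 CPM in Sham and 27.2, 9.17 and 10.3 CPM in TGFbi (3.08 ± 0.53). Tubb3, a tubulin best known from neurons, measured 3.46, 2.05 and 3.11 CPM against 23.4, 7.89 and 12.4 CPM (2.33 ± 0.47). Their models lie 820 bases apart on the same strand of chromosome 8 (123407082 to 123410744 and 123411564 to 123422010), so counts from transcripts spanning both cannot be told apart. Col23a1, a transmembrane collagen, was at 3.40, 2.78 and 2.08 CPM against 29.8, 14.3 and 7.76 CPM. The remaining higher genes, Kctd4, Exoc3l2, Nron, Rmi1 and Nipal4, had differences of 0.68 to 1.60.

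Wnt pathway genes as a list lay at Sham (median -0.01, 21 of 38 below), with 3 members lower and 3 higher without overlap, near the 7.88% and 7.43% of all genes. Sfrp1, a secreted Wnt antagonist, was higher at 860, 1380 and 1447 CPM against 678, 686 and 578 CPM in Sham. Nkd1, a feedback inhibitor of the pathway, was at 2.11, 0.399 and 1.29 CPM against 4.47, 3.60 and 3.37 CPM. Ndp, the Frizzled-4 ligand norrin, measured 0.703, 0.718 and 0.970 CPM against 1.79, 2.05 and 2.01 CPM (-1.28 ± 0.29).

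The direction of activated fibroblast and vessel genes depended on Sham replicate 1, and that of resting fibroblast and laminin genes did not. Activated fibroblast genes had a median of -0.67 (13 of 16 below Sham) that was 1.11 without that tumor, and endothelial genes had -0.34 that was 0.89. Genes of resting fibroblasts were above Sham in 13 of 14 cases with a median of 0.77, and 14 of 14 with 3.40 without it, and the median fell to 0.42 without TGFbi replicate 1 or Sham replicate 2. The size of their difference thus depended on Sham replicate 1. Their summed level was 505, 114 and 129 CPM in Sham and 437, 264 and 347 CPM in TGFbi, so that tumor was the highest. Without overlap 1 of these 14 genes was higher (7.14%, beside 7.43% of all genes). It was the lipid transporter gene Abca8a, at 5.19, 2.39 and 2.83 CPM against 0.597, 0.246 and 0.130 CPM in Sham. Laminin and basement membrane genes were below Sham in 12 of 15 cases with a median of -0.39, and in 11 of 15 with -0.21 without that tumor. Without overlap, 4 of 15 of these genes were lower, beside 7.88% of all genes.

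**Figure D3:**
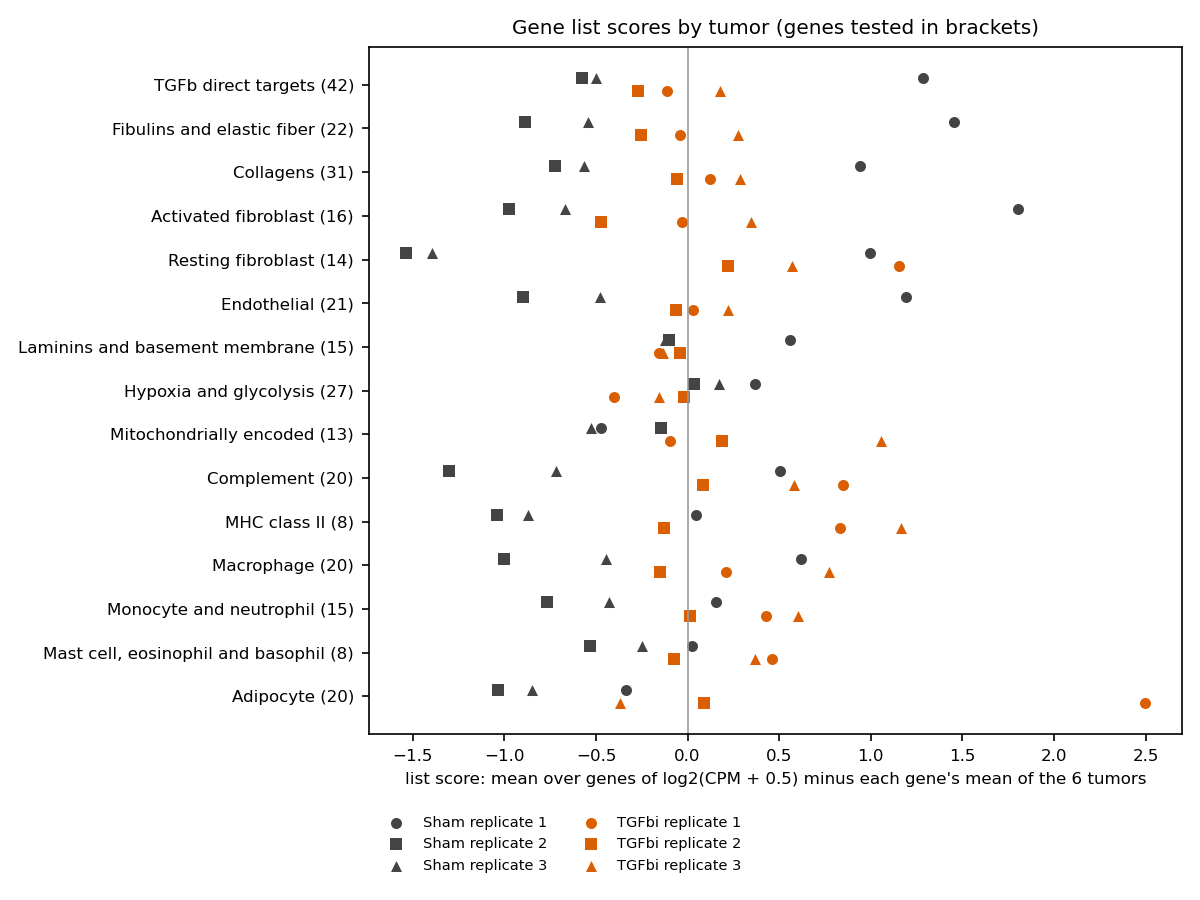
Score of 15 gene lists in each tumor, averaged over genes from log2(CPM + 0.5) after each gene was centred on its mean over the 6 tumors; grey is Sham, orange is TGFbi, and shapes are replicate numbers. Sham replicate 1 (grey circle) lies far to the right for stromal lists, TGFbi replicate 1 (orange circle) for adipocyte genes and TGFbi replicate 3 (orange triangle) for mitochondrial genes.

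Genes of several immune cell lists, some of them at low levels, lay mostly above Sham without passing the test. Genes too scarce in Sham to pass the low-count filter there were tested only through other groups. That favors values above Sham. All 8 tested genes of MHC class II, the molecules that show peptides to CD4 T cells, were above Sham with a median of 1.74 and 1.45 to 2.64 when each tumor was left out in turn. Cd74, the invariant chain, measured 18.7, 4.42 and 5.51 CPM in Sham and 39.9, 18.5 and 54.2 CPM in TGFbi, with overlap. Ciita, the master regulator of class II genes, was at 2.21, 1.15 and 1.49 CPM against 6.24, 2.63 and 5.25 CPM without overlap. Clec10a, a lectin of dendritic cells and alternatively activated macrophages, separated the groups evenly: 1.43, 1.06 and 0.843 CPM in Sham and 12.1, 11.2 and 10.9 CPM in TGFbi (3.34 ± 1.22, edgeR adjusted p = 0.492). Its standard error comes from a spread shared with all 15 tumors.

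Macrophage genes were above Sham in 16 of 20 cases with a median of 0.47, which was 0.01 without TGFbi replicate 3, 0.12 without Sham replicate 2 and 0.89 without Sham replicate 1. Monocyte and neutrophil genes had a median of 1.01, with 13 of 15 above, which was 0.57 without TGFbi replicate 3 and 1.63 without Sham replicate 1. The 9 tested cytotoxic lymphocyte genes were at 1.12 CPM or less in each of the 6 tumors. The granzyme genes Gzma and Gzmb had 0 counts in all Sham tumors and at most 0.646 CPM in TGFbi. Of 20 complement genes 19 were above Sham (median 0.56). This was 0.37 without Sham replicate 2 and 1.33 without Sham replicate 1, and 6 of 20 were below Sham without Sham replicate 2 or TGFbi replicate 3. Cfb, factor B, measured 16.0, 18.3 and 17.8 CPM against 5.40 to 7.46 CPM. The direction of interferon genes turned with single tumors. Interferon gamma and MHC class I genes had a median of -0.12, which was -0.43 without Sham replicate 2, and 0.03 and 0.10 when Sham replicate 3 or TGFbi replicate 2 was left out. Type I interferon genes had 0.24, which was 0.62 without Sham replicate 1 and -0.09 without Sham replicate 2.

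Adipocyte genes were highest in TGFbi replicate 1. Of 20 adipocyte genes 18 were above Sham with a median of 2.52, which was 0.93 with 7 of 20 below when that tumor was left out. Among them Adipoq and Retn had 0 counts in all Sham tumors. Such genes pass the low-count filter only through other groups, so the filter favors values above Sham. Perilipin gene Plin1, which coats lipid droplets, measured 12.2, 0.319 and 0.242 CPM in TGFbi and 0, 0 and 0.0648 CPM in Sham. Luminal epithelial genes were mixed: 12 of 22 were below Sham with a median of -0.23. The median was -0.65 with 18 of 22 below without TGFbi replicate 1, and 0.17 with 8 of 22 below without Sham replicate 1. The summed level of these genes was highest in Sham replicate 1, at 739 CPM against 564 CPM in TGFbi replicate 1. Some of them, of hormone-sensing epithelium, were highest in TGFbi replicate 1: Foxa1 was at 12.8, 0.239 and 0 CPM in TGFbi with 0 counts in Sham, and Krt19 at 45.0, 0.399 and 0.646 CPM against 0.895, 0.164 and 0.195 CPM. The prolactin receptor gene Prlr measured 62.7, 2.07 and 2.99 CPM against 2.39, 1.06 and 0.973 CPM. TGFbi replicate 3, a resubmitted library, differed in another way, with the keratin genes of cornified epidermis Krt1 at 31.4 CPM and Krt10 at 54.1 CPM, against at most 0.879 and 6.94 CPM in the other 5 tumors, both named after their values were seen. The part of such tissue in other results was not tested.

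All 13 mitochondrially encoded genes were above Sham (median 0.81), and 8 did not overlap, where 7.43% of all genes were higher without overlap. ND4, a subunit of complex I, measured 1290, 1547 and 1108 CPM in Sham and 1861, 2386 and 4484 CPM in TGFbi. The share of counts on mitochondrial genes was highest in TGFbi replicate 3, at 6.45%, where Rn7sk, a small nuclear RNA, took 6.30%, and without that tumor the median was 0.41. Nuclear genes of the respiratory chain had a median of -0.18, with 25 of 30 below Sham, which was -0.02 with 17 of 30 below without Sham replicate 2 and -0.34 without Sham replicate 1. Cell cycle genes lay near Sham, with medians of 0.07 for S phase and -0.11 for G2 and M, which turned to -0.13 without Sham replicate 1 and to 0.06 without Sham replicate 2, in that order. Mki67, the proliferation antigen, measured 608, 915 and 672 CPM in Sham and 850, 879 and 693 CPM in TGFbi. A p53 target list had a median of -0.04 in these Trp53 null tumors, and 0.03 without Sham replicate 1.

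Hypoxia and glycolysis genes were lower as a list, and stayed so with each tumor left out. Of 27 members 25 were below Sham with a median of -0.33, and the median was -0.33 to -0.44, with 21 to 26 members below, with each tumor left out in turn. Their summed level was 7488, 7111 and 7485 CPM in Sham and 5039, 6231 and 5415 CPM in TGFbi, so every TGFbi tumor was below every Sham tumor. Vegfa, the vascular growth factor, measured 588, 392 and 489 CPM in Sham and 164, 341 and 243 CPM in TGFbi (-0.98 ± 0.64). Ndrg1, a stress-induced differentiation gene, was at 469, 243 and 335 CPM against 141, 217 and 187 CPM. Without overlap 12 of 27 were lower (44.4%, beside 7.88% of all genes) and 0 higher. By edgeR 0 members passed the adjusted test and 1 had an unadjusted p under 0.05, and by DESeq2 0 passed.

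In irradiated tumors the same agent gave other values for part of these genes. Here RT libraries all carry another library code than TGFbi+RT libraries, and the other 3 irradiated tumors, which also received anti-PD-L1, carry both codes (1 and 2 tumors). Adjusting for the code therefore rests on those 3 tumors, and values with this code term are given beside the results. TGFbi+RT replicate 3 and TGFbi replicate 3 were resubmitted libraries, and the names of their count columns do not show the code. Each was fitted with the code of the other tumors in its group. Values with the code term hold only under that assignment. Fbln7 measured 22.1, 19.8 and 17.0 CPM in RT and 15.2, 12.3 and 9.64 CPM in TGFbi+RT, again without overlap, with a log2 fold change of -0.67 ± 0.27 (edgeR adjusted p = 0.48), which was -0.37 ± 0.49 with the code term (edgeR adjusted p = 0.727). The interaction, TGFbi+RT minus RT less TGFbi minus Sham, was 1.83 ± 0.39 for Fbln7, with an unadjusted edgeR p of 0.000397 and an adjusted p of 1, and 2.13 ± 0.58 with the code term (edgeR adjusted p = 0.606). Across all genes 608 (3.8%) had an unadjusted interaction p under 0.05, and 0 passed adjusted. Of the 12 leading lower genes 11 had such a p, and of the 12 leading higher genes 6. These genes, Fbln7 included, were picked by their TGFbi minus Sham values, which are part of the interaction. That choice favors a small interaction p.

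Of the 12 leading lower genes 8 had the same sign with radiation (49.8% of all genes were below RT), 3 of them without overlap (8.29% of all genes were lower without overlap there). Of the 12 leading higher genes 11 had the same sign (50.2% of all genes were above RT), 5 of them without overlap (7.66% of all genes). With the code term the same sign was found for 5 of the 12 lower and 8 of the 12 higher genes, where 52.4% of all genes were above RT. Duox1 measured 9.04, 6.31 and 7.24 CPM in RT and 20.1, 15.7 and 33.1 CPM in TGFbi+RT (1.60, edgeR adjusted p = 0.383). Crabp1 was at 13.5, 13.8 and 8.78 CPM against 34.3, 33.8 and 39.1 CPM, and Krt75 at 0.748, 1.22 and 2.11 CPM against 5.36, 2.44 and 4.43 CPM. These were higher in both settings, whereas Mc1r had a log2 fold change of 0.00 with radiation and Tubb3 -0.36. With the code term Duox1 was at 1.15, Crabp1 at 1.53 and Krt75 at 1.11, and Mc1r and Tubb3 were at -1.14 and -1.20.

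**Figure D4:**
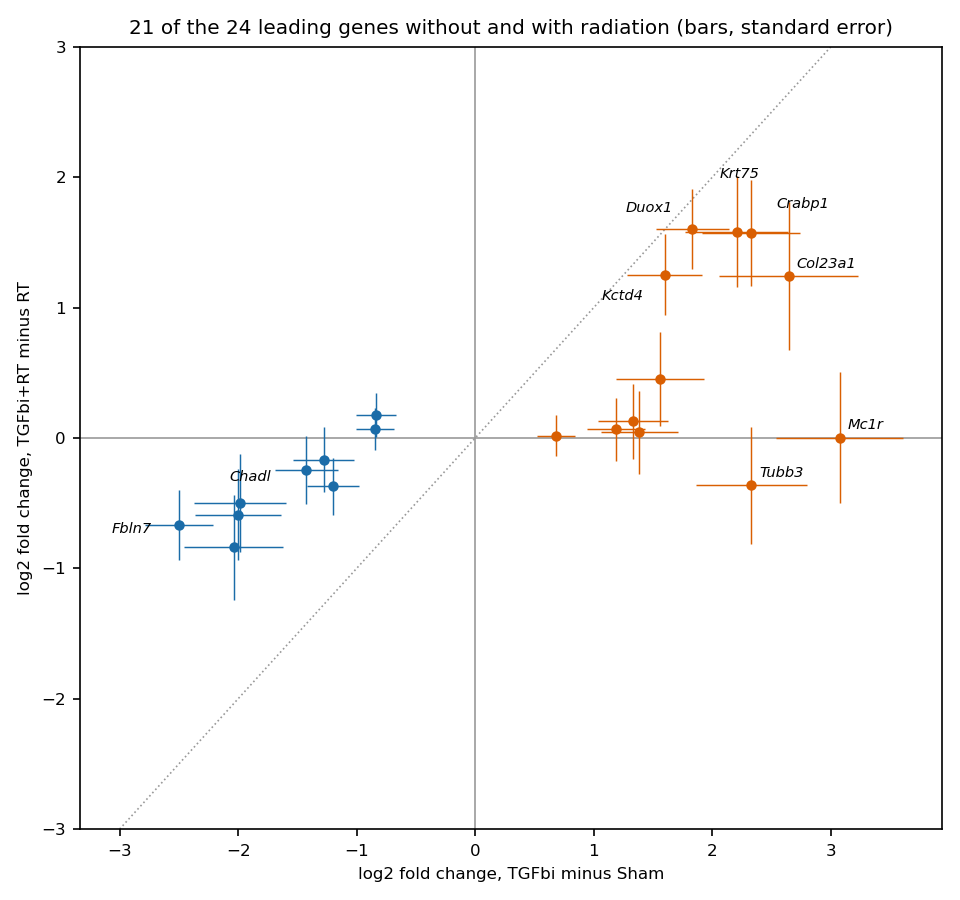
Log2 fold change of 21 of the 24 leading genes without radiation (horizontal, TGFbi minus Sham) and with it (vertical, TGFbi+RT minus RT), with standard error bars; blue genes were lower and orange genes higher without radiation, and the dotted line marks equal values. Duox1, Krt75, Crabp1, Kctd4 and Col23a1 lie above 1 on both axes, while Mc1r and Tubb3 lie at 0.00 and -0.36 on the vertical axis.

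Some genes were close in both settings, chosen after their values were seen. Ext2, a polymerase of heparan sulfate chains (chromosome 2), measured 110, 111 and 116 CPM in Sham, 75.0, 70.0 and 84.7 CPM in TGFbi, 109, 105 and 117 CPM in RT and 74.2, 76.5 and 70.3 CPM in TGFbi+RT. Its log2 fold changes were -0.55 and -0.59, the latter -0.83 with the code term, and neither pair of groups overlapped. Ndp was at 2.81, 4.95 and 4.64 CPM in RT and 1.27, 1.10 and 1.11 CPM in TGFbi+RT (-1.83), again lower.

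Hypoxia genes took opposite sides in the irradiated comparison, with 26 of 27 above RT and a median of 0.54. Centred over all 15 tumors, the list score was 0.67, 0.34 and 0.48 in Sham and -0.09, 0.29 and 0.15 in TGFbi. It was -0.46, -0.56 and -0.33 in RT and 0.01, 0.50 and 0.17 in TGFbi+RT. Of these groups RT lay lowest, and TGFbi+RT overlapped with TGFbi and with Sham. Vegfa measured 126, 101 and 170 CPM in RT and 254, 510 and 281 CPM in TGFbi+RT. Car9, the hypoxia-induced carbonic anhydrase, was at 2.37, 1.09 and 1.12 CPM against 7.07, 9.91 and 5.63 CPM. There 14 members were higher without overlap (7.66% of all genes were). Unadjusted interaction p-values were under 0.05 for 8 of 27 members, beside 3.8% of all genes, and the smallest adjusted one was 1. With the code term 25 of 27 members were above RT with a median of 1.26, and 11 had an unadjusted interaction p under 0.05, beside 8% of all genes.

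**Figure D5:**
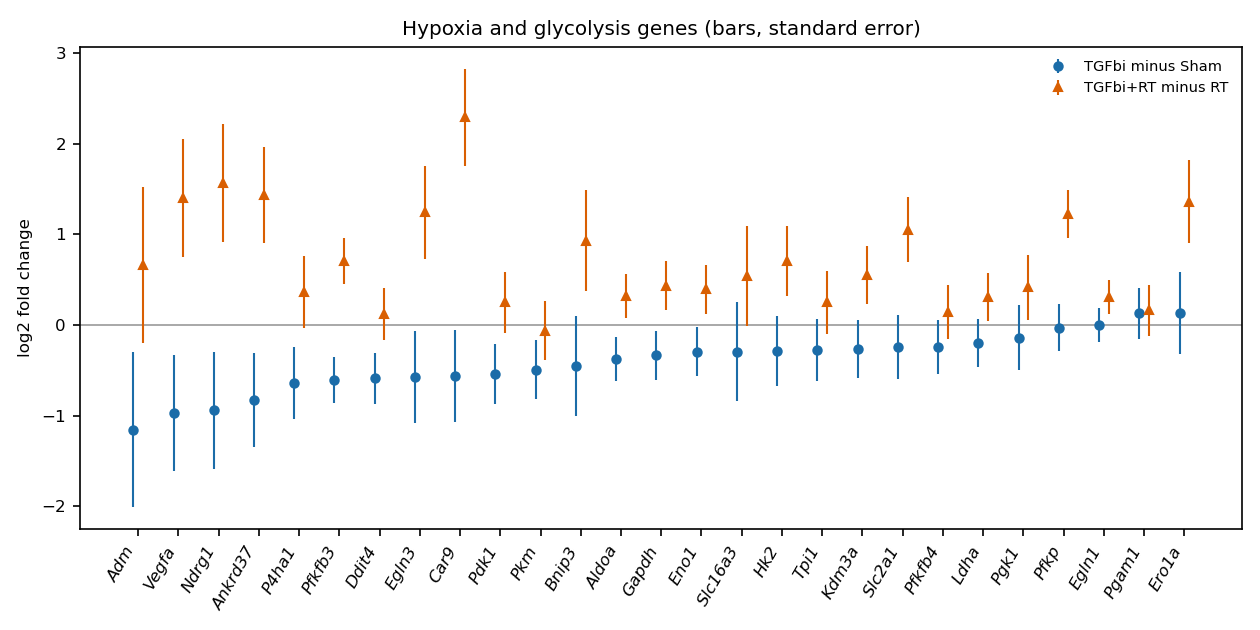
Log2 fold change with standard error of the 27 hypoxia and glycolysis genes, for TGFbi minus Sham (blue circles) and TGFbi+RT minus RT (orange triangles), ordered by the first. Nearly all circles lie at or below 0 (25 of 27) and nearly all triangles above it (26 of 27).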

How the data were processed

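RNA from 6 tumors was compared (3 TGFbi, 3 Sham), with 3 RT and 3 TGFbi+RT tumors as a further contrast. The table the authors deposited holds raw counts of fragments per Entrez gene for 27179 genes, and its column names mention the Subread aligner. The build is GRCm38 per the submitters' processing notes. Aligner settings, strand setting and annotation release are not given in the sources used here, so overlapping antisense genes cannot be told apart. RNA was ribosome-depleted before library construction, per the labels' protocols. A mouse gene table matched 25275 of the identifiers to a symbol.

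Counts were analysed in R 4.3.3 with edgeR 4.0.16: filterByExpr, TMM scaling and a quasi-likelihood fit of all 15 tumors with 1 mean per group, no replicate block, 10 residual degrees of freedom and Benjamini-Hochberg adjustment at 0.05. All 15 tumors were fitted together so that 5 groups share 1 estimate of the spread. Total counts were 11002869 to 17184023. A permutation of 3 against 3 tumors cannot give p under 0.1, so no single value was tested that way. DESeq2 1.42.0, limma-voom (limma 3.58.1), other scalings, filters, subsets, each tumor left out, the library code as a term and a replicate block were alternatives. Pairs of tumors within a group differed far beyond counting error (chi-square per gene 27.9 to 88.6), so none was counted as a repeat. The scripts were tested on simulated data.

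The compared groups and the 46 gene lists were chosen with earlier results of these data known. Lists are described by counts and medians with no set test, and refer to members that passed the filter. Leading genes are the 12 with the smallest p in each direction with a standard symbol, no overlap and log2 CPM averaging 1 or more. Further names are up to 3 members of a list with the smallest p, all members of the TGFb and fibulin lists, and the 10 largest differences DESeq2 called in each direction without overlap. A few genes that these rules name are not reported here. Other names stand as examples of a list, or the text says that they were picked once values were known.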

Additional observations from a re-analysis of the deposited data

Results flagged for a closer look

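The log2 fold changes of Fbln7 under the inhibitor, without and with radiation, lay 1.83 apart (edgeR interaction, unadjusted p = 0.000397, adjusted p = 1). By DESeq2 the adjusted p of the interaction was 0.0613. Fbln7 was picked by its TGFbi minus Sham values, which are part of the interaction, and that choice favors a difference. Its log2 fold change was -2.50 without radiation and -0.67 with it, lower in 3 of 3 tumors in both. RT and TGFbi+RT libraries differ in library code, and with the code as a term the value with radiation was -0.37 and the difference 2.13 (edgeR adjusted p = 0.606).

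Bhlhe40 was lower in every TGFbi tumor than in every Sham tumor (-0.76), and higher in every TGFbi+RT tumor than in every RT tumor (0.52). The difference between the effects was 1.28 (edgeR interaction, unadjusted p = 0.000957, adjusted p = 1), and 1.41 with the code term (edgeR adjusted p = 0.606). Bhlhe40 too was named for a small p in TGFbi against Sham, so the same limit holds for its interaction p.

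The hypoxia and glycolysis list was below Sham in every TGFbi tumor and above RT in every TGFbi+RT tumor. Its median log2 fold change was -0.33 and then 0.54, and the median difference between the effects over its members was 0.83, which was not tested as a list. With the code term the median with radiation was 1.26 and the median difference 1.68.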

How the results depend on the processing

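The count of 1 called gene was 127 by DESeq2, 0 by limma-voom, 0 with only TGFbi and Sham in the fit, 0 without the resubmitted libraries, and 0 to 5 with 1 tumor left out. Fbln7 kept its direction in each alternative but missed the threshold by limma-voom (-2.49, adjusted p = 0.0946), with only TGFbi and Sham in the fit (-2.48, adjusted p = 0.0945) and without the resubmitted libraries (-2.67, adjusted p = 0.0961), and gave -2.65 to -2.38 with 1 tumor left out.

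Whether replicate numbers pair the tumors was not settled. Deviations of same-numbered Sham and TGFbi tumors correlated at 0.150, 0.373 and -0.044. Those of differently numbered tumors correlated at -0.398 to 0.220. Deviations within a group depend on each other, so such values cannot decide it. With the replicate block Fbln7 was -2.47 (adjusted p = 0.0519) over 15 tumors and -2.49 (adjusted p = 0.233) over 6, and the count was 0 in both.

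The TGFb target median was -0.85 to 0.23 with 1 tumor left out. The 60 other genes followed gave 1188 values, 0 of them reversed. They include the leading genes, chosen for no overlap, whose direction leaving out a tumor can hardly reverse, so the 0 was largely set by the choice. Genes outside this set did reverse without Sham replicate 1, such as Lox (-0.71 to 2.73) and Col1a1 (-0.37 to 2.33). Of 46 list medians 27 moved by over 1 SD of the list scores within groups in at least 1 alternative. Genes with low counts, such as granzymes and mast cell genes, are limited by depth. The causes of these dependences were not tested.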

Other observations

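Blood and mast cell genes, which no comparison above uses, also lay above Sham. All 6 tested erythrocyte genes did, with a median of 1.10 (0.78 to 1.55 with 1 tumor left out), and the hemoglobin gene Hbb-bs measured 43.7, 23.2 and 22.1 CPM in Sham and 130, 71.8 and 60.9 CPM in TGFbi. The mast cell protease gene Tpsb2 was at 0, 0 and 0.13 CPM in Sham and 0.967, 0.478 and 0.485 CPM in TGFbi. Of 19 listed mast cell, eosinophil and basophil genes 8 passed the filter, among them Cma1 and Mcpt4 with 0 counts in all Sham tumors. Such genes pass only through other groups, so the filter favors values above Sham. The median of the 8 genes was 2.17, or 1.92 with genes at 0 in a group set to a bound from 3 counts over that group, which covers counting error alone. Kit, a receptor of mast cells that mammary progenitors also express, was at 126, 8.52 and 31.6 CPM in Sham and 15.2, 9.25 and 53.4 CPM in TGFbi, with overlap.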
